A study of Mus musculus with 8 samples.

Results

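The Kupffer cell and macrophage genes are a set of 32 genes that mark the resident macrophages of the liver and related myeloid cells. Members were found by gene name among the 55594 non-control probes of 8 mouse liver microarrays, where the set had 41 probes. Probes carried the names of 31 members, with F4/80 listed under its older symbol Emr1, and the remaining member, Spi1, was found through its accession under the older symbol Sfpi1. Of the 32 genes, 31 had a probe that was well above background on 4 or more arrays, and these were tested among 23526 genes. Cd163, a scavenger receptor for haptoglobin-bound haemoglobin, was not tested, because its probe was well above background only on wild-type 2.

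Kupffer cells are macrophages fixed to the wall of the liver sinusoids, where they take up bacteria, worn-out red blood cells and complement-coated particles from the blood. They arise from fetal precursors that settle in the liver before birth and depend on signalling through the colony-stimulating factor 1 receptor and on the transcription factor PU.1. The fetal liver is also a site of blood formation, so its tissue holds erythroblasts, granulocyte precursors and monocytes beside macrophages.

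Knockout pups had inherited from their mother a chromosome without the miR-379/miR-410 cluster of microRNAs, and wild-type pups were littermates. All were on a C57BL/6J background, were delivered by caesarean at embryonic day E19.5 and were killed 4 h later, so the wild-type group shares the caesarean and the hours outside the uterus. Total RNA came from a piece of the large lobe, with 4 arrays per genotype described as biological replicates. The liver was not sorted into cell types, and fewer macrophages and less RNA per macrophage cannot be told apart in such samples.

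Levels are log2 processed signals minus the array's 75th percentile, so a level of 0 equals that percentile, and each difference is knockout minus wild-type, given with a standard error (SE). As a check of genotype, Mirg, a noncoding RNA of the imprinted domain that holds the cluster, averaged -0.54 ± 0.33 in knockout and 2.16 ± 0.06 in wild-type livers (SD, n = 4 each, limma adjusted p = 0.000326). Replicate 4 of each genotype was the array best fitted as a weighted sum of the other 3 arrays of its genotype. The residual SD was 0.204 log2 for knockout 4 and 0.264 for wild-type 4, the lowest of each group. It was 0.252 to 0.327 for the other knockout arrays and 0.296 to 0.413 for the other wild-type arrays. Replicate 3 had the largest weight in both sums, 0.62 for knockout 4 and 0.55 for wild-type 4. Replicates 3 and 4 of a genotype may not be separate observations. These fits cannot decide this, because some array of each group must have the lowest residual. Knockout 4 also had both the female-specific Xist and the Y-linked Ddx3y well above background. If these arrays are not independent, p-values from 8 arrays are too small. Values without replicate 4 of both genotypes are given for the counts of calls and for some of the genes nearest to a call. Mirg still passed when both replicate 4 arrays were left out (-2.64, limma adjusted p = 0.0230), but did not pass when wild-type 1 was also left out (limma adjusted p = 0.107). Xist was detected in 3 knockout livers (1, 2 and 4) and in 0 wild-type livers. Ddx3y was well above background on knockout 3 and 4 and on wild-type 1, 2 and 4. Without knockout 3 and 4, the knockout arrays left had Xist and no Ddx3y, and no wild-type array had Xist. Genotype and Xist cannot be told apart in any fit without knockout 3 and 4. In wild-type 3 neither Xist nor Ddx3y was well above background, so these genes do not show its sex. Each genotype filled its own column of the slide, so genotype and slide position cannot be told apart.

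Probes are shown for the most negative member difference (Clec4f) and the 2 most positive (Itgam and Marco). Each is given by the first 30 of its 60 bases. The Itgam probe holds a repeat that is described further on. Coordinates are those the array files give on mm9, and whether each lies in an exon or a UTR was not annotated here. In the Itgam probe, the capitals mark a run of CA repeats. The files list the Clec4f probe at chr6:83595281-83595339, minus strand. They list the Marco probe at chr1:122371115-122371134, minus strand, an interval of 20 bases that holds only part of the 60-base probe, and the Itgam probe at chr7:135261755-135261814, plus strand.
Clec4f: aactggagacataggaacggagagcgagaa
Marco: gagcccgagaggtcatcagtgtgtccccag
Itgam: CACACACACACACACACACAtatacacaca

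No member passed the test between genotypes. At a limma adjusted p under 0.05, 0.179% of all genes were lower (42 genes) and 0.0383% were higher (9 genes) in knockout livers, against 0 of 31 members in either direction. At an unadjusted p under 0.05, 13.3% of all genes and 1 of the 31 members (3.23%), Clec4f, differed in either direction. Without replicate 4 of both genotypes, limma called 0.0255% of all genes lower (6 genes), none higher and 0 members, with 7.33% of genes and 1 member, again Clec4f, at an unadjusted p under 0.05.

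The groups did not overlap for 2 members. Clec4f was lower on every knockout array than on any wild-type array, as were 4.33% of all genes. By its brightest probe, Itgam was higher on every knockout array than on any wild-type array, as were 4.72% of all genes. Without replicate 4 the same members did not overlap, Clec4f beside 6.15% of all genes lower and Itgam beside 7.38% higher. The median difference of the 31 members was -0.07, beside 0.03 over all genes. Differences were below 0 for 22 members (71.0%) and for 43.5% of all genes. Without knockout 3 and 4, which leaves only knockout arrays with Xist and no Ddx3y, the members' median was -0.0001.

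If the 8 arrays are independent, the 95% intervals set bounds on what they could have missed. Of the 31 members, 21 had an interval inside 0.5 log2 on either side of 0 and 29 had one inside 1 log2. The exceptions to the wider bound were Cd14 and Cx3cr1. The interval reached 0.15 to either side for Csf1r, the narrowest, and 1.19 for Cd14, the widest, with a median of 0.29 over members and 0.26 over all genes. These p-values and intervals rest on the spread between arrays of the same genotype and treat all 8 as independent. No intervals without replicate 4 are given.

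**Figure D1:**
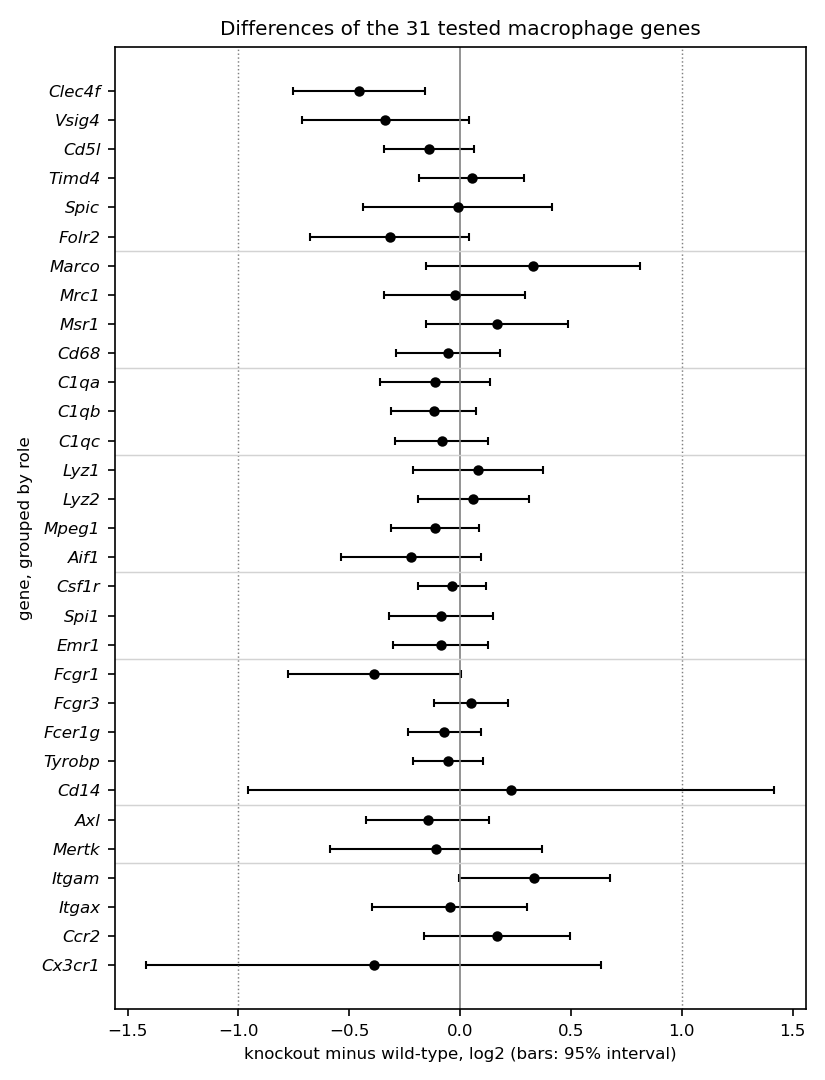
Difference of each of the 31 tested members (knockout minus wild-type, log2, horizontal axis) with its 95% interval from limma, grouped by role down the page; dotted lines mark 1 log2 on either side. Clec4f is the only member whose interval excludes 0, and the Cd14 and Cx3cr1 intervals reach past 1 log2.

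Of the roles, the 6 genes grouped here as Kupffer identity had the lowest median difference, -0.23, which was -0.14 without wild-type 1. Of these genes, 5 had differences below 0 and 1 above. The roles were chosen with earlier results of these data known, and the ranking depends on that sorting. Marco, placed with the scavenger receptors, had a difference of 0.33. Clec4f, a C-type lectin found on Kupffer cells, had levels of 3.52, 3.99, 3.53 and 3.66 on knockout arrays 1 to 4, against 4.38, 4.13, 4.00 and 4.01 on wild-type arrays 1 to 4. Every knockout array lay below every wild-type array, with knockout 2 just below wild-type 3. The mean was 3.68 ± 0.22 in knockout and 4.13 ± 0.17 in wild-type livers (SD, n = 4 each), a difference of -0.45 (SE 0.13, 95% interval -0.75 to -0.16), or 0.730-fold. It did not pass over all genes (limma unadjusted p = 0.00742, adjusted p = 0.203). The difference was -0.49 without replicate 4 (limma adjusted p = 0.625) and -0.37 without wild-type 1 (limma adjusted p = 0.233).

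Vsig4, the complement receptor by which Kupffer cells capture particles coated with C3 fragments, had 1.89, 2.24, 1.66 and 1.93 on the knockout arrays, against 2.66, 2.18, 2.23 and 2.01 on the wild-type arrays. Knockout 2 lay above 3 of the wild-type arrays, and wild-type 1 lay above all others. The difference of Vsig4 was -0.34 (SE 0.16, limma adjusted p = 0.417), and -0.21 without wild-type 1. Folr2, a folate receptor of resident macrophages, had 0.64, 1.18, 0.84 and 0.88 on the knockout arrays, against 1.54, 0.92, 1.25 and 1.09 on the wild-type arrays. The groups overlapped through knockout 2, and the difference of -0.32 (SE 0.16, limma adjusted p = 0.420) was -0.20 without wild-type 1.

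The other members of this group were closer to 0. Cd5l, a secreted scavenger protein that inhibits macrophage apoptosis, had 5.67 to 5.73 on the knockout arrays, against 5.68 to 6.01 on the wild-type arrays (difference -0.14, SE 0.09). Timd4, which binds phosphatidylserine on dying cells, had -0.41 to -0.19 on the knockout arrays, against -0.59 to -0.14 on the wild-type arrays (difference 0.05, SE 0.10). Spic, the transcription factor needed by iron-recycling macrophages, had 1.67 to 2.06 on the knockout arrays, against 1.50 to 2.40 on the wild-type arrays. Its difference of -0.01 (SE 0.19) was 0.15 without wild-type 1. In all 6 genes of this group, wild-type 1 was the highest of the 8 arrays.

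**Figure D2:**
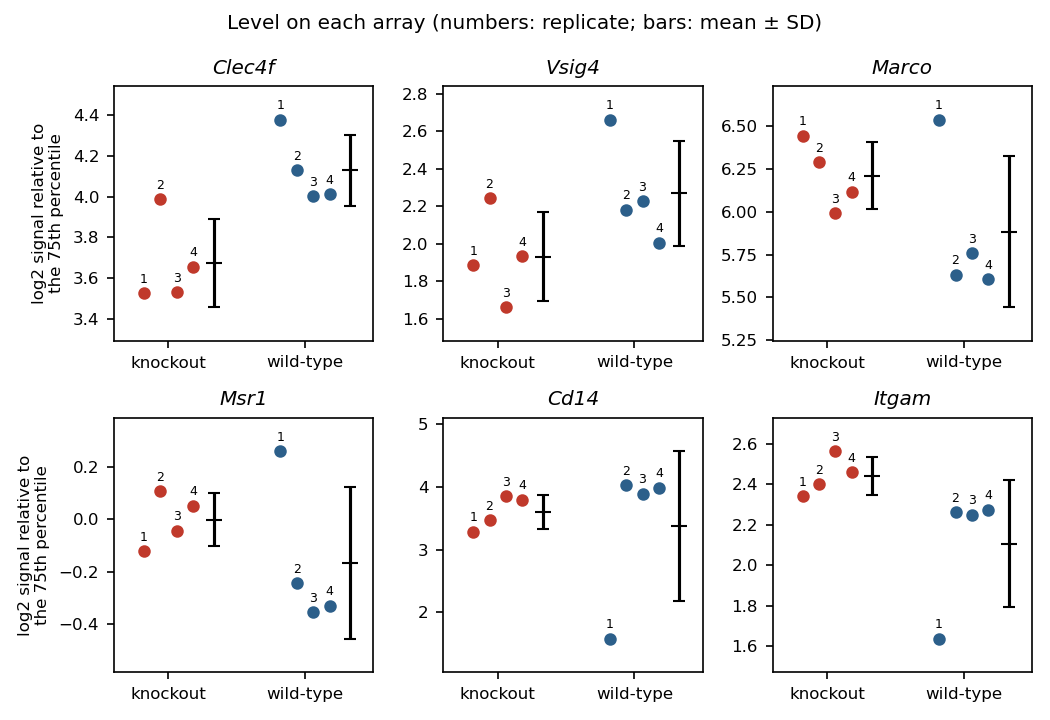
Level of 6 members on each array (log2 signal relative to the array's 75th percentile, vertical axis), with the replicate number over each point and bars for mean ± SD (n = 4). Clec4f on knockout arrays lies below every wild-type array, and for Marco, Msr1, Cd14 and Itgam wild-type 1 lies far from the other wild-type arrays.

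Scavenger receptors had differences on both sides of 0. Marco, a class A scavenger receptor that binds bacteria, had levels of 6.45, 6.29, 5.99 and 6.12 on knockout arrays 1 to 4, against 6.54, 5.63, 5.76 and 5.61 on wild-type arrays 1 to 4. All knockout arrays lay above wild-type 2 to 4 and below wild-type 1. The difference of Marco was 0.33 (SE 0.21, limma adjusted p = 0.518), and without wild-type 1 it was 0.55 (SE 0.12, limma unadjusted p = 0.00187, adjusted p = 0.114). Without replicate 4 it was 0.27 (limma adjusted p = 0.814). Msr1, the founding class A scavenger receptor for modified lipoproteins, had -0.12, 0.11, -0.04 and 0.05 on the knockout arrays, against 0.26, -0.24, -0.36 and -0.33 on the wild-type arrays. The order was that of Marco, with wild-type 1 above and wild-type 2 to 4 below every knockout array. The difference of Msr1 was 0.17 (SE 0.14, limma adjusted p = 0.618), and 0.31 without wild-type 1 (SE 0.08, limma adjusted p = 0.150). Without replicate 4 of both genotypes it was 0.09 (limma adjusted p = 0.901). The other Msr1 probe, on another stretch of the gene, differed by 0.27, and there wild-type 1 lay inside the knockout range.

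Mrc1, the mannose receptor, had 2.72 to 2.95 on the knockout arrays, against 2.61 to 3.26 on the wild-type arrays (difference -0.02, SE 0.14). Wild-type 1 was again the highest, and the difference was 0.11 without it. Cd68, a lysosomal glycoprotein of macrophages, had 2.98 to 3.32 on the knockout arrays, against 3.11 to 3.36 on the wild-type arrays. Both of its probes differed by -0.05 (SE 0.10 for the brighter).

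The C1q genes encode the 3 chains of C1q, which macrophages make in quantity and which is part of the first complement component. C1qa had 3.58, 3.88, 3.43 and 3.54 on the knockout arrays, against 3.87, 3.62, 3.69 and 3.70 on the wild-type arrays. C1qb had 3.58, 3.82, 3.47 and 3.63 on the knockout arrays, against 3.77, 3.70, 3.77 and 3.74 on the wild-type arrays. C1qc had 3.95, 4.20, 3.88 and 3.85 on the knockout arrays, against 4.10, 3.97, 4.09 and 4.06 on the wild-type arrays. In all 3 genes knockout 2 was the highest of the 8 arrays and the other knockout arrays lay below every wild-type array.
The C1q differences were -0.11, -0.12 and -0.08 for C1qa, C1qb and C1qc (SE 0.11, 0.08 and 0.09), with limma adjusted p of 0.660, 0.550 and 0.702. The knockout SD was 0.19, 0.15 and 0.16 for the same genes, against 0.11, 0.03 and 0.06 in wild-type. Without knockout 3 and 4 the differences of C1qa, C1qb and C1qc were 0.0081, -0.05 and 0.021. Without knockout 2 they were -0.20, -0.185 and -0.16, with limma adjusted p of 0.336, 0.294 and 0.345. C1qc was printed on 10 spots of each array, whose SD was 0.03 to 0.06 log2.

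The lysozyme genes Lyz1 and Lyz2 are neighbouring copies on chromosome 10 that encode bacteria-digesting enzymes. Lyz1 had 4.62, 4.41, 4.79 and 4.81 on the knockout arrays, against 4.30, 4.63, 4.75 and 4.64 on the wild-type arrays (difference 0.08, SE 0.13). Lyz2 had 3.42, 3.14, 3.35 and 3.39 on the knockout arrays, against 3.11, 3.10, 3.45 and 3.40 on the wild-type arrays (difference 0.06, SE 0.11). Knockout 2, the highest array for the C1q genes, was the lowest knockout array for both lysozymes. The probes of the 2 genes share at most 6 consecutive bases of 60. Neither probe was compared with the transcript of the other gene, so whether each signal comes from its own gene alone was not tested.
Mpeg1, which encodes the pore-forming protein perforin-2, had 3.66 to 3.92 on the knockout arrays, against 3.78 to 4.03 on the wild-type arrays (difference -0.11, SE 0.09), and its dimmer probe differed by -0.15. Aif1, which encodes the actin-binding protein Iba1, had 2.63 to 2.77 on the knockout arrays, against 2.70 to 3.32 on the wild-type arrays. Its difference of -0.22 (SE 0.14, limma adjusted p = 0.508) was -0.08 without wild-type 1, the array with the level of 3.32.

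Promoter sequence is shown for the C1q and lysozyme genes, 2 families of neighbouring genes whose levels are set side by side above. The windows come from RefSeq on GRCm38.p6 and hold the 250 bases before the annotated start, 5′ to 3′ on the gene's strand. Capitals mark the letters ACTTCCT, the reverse complement of AGGAAGT, a form of the site bound by PU.1. The windows lie at chr4:136886201-136886450 (C1qb), chr4:136892915-136893164 (C1qc), chr10:117292869-117293118 (Lyz1) and chr10:117282273-117282522 (Lyz2), all on the minus strand.
C1qb: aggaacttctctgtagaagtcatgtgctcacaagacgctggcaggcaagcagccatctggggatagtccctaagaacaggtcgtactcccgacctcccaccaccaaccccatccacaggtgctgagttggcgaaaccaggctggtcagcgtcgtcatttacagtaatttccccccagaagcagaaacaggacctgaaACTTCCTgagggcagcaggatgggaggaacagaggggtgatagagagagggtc
C1qc: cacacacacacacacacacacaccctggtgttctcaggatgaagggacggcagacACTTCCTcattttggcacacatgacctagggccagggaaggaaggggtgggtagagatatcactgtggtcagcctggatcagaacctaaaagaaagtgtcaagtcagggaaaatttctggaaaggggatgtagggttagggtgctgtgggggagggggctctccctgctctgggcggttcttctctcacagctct
Lyz1: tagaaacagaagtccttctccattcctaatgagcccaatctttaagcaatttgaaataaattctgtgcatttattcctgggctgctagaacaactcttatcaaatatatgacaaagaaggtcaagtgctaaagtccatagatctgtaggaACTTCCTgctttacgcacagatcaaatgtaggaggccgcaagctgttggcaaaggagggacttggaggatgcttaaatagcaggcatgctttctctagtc
Lyz2: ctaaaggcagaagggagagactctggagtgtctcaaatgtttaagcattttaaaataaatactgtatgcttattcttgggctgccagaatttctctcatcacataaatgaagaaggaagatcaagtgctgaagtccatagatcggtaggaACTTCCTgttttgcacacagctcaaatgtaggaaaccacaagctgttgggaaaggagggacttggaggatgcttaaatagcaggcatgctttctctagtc
The match began 53 bases before the start of C1qb, 195 bases before that of C1qc and 100 bases before those of Lyz1 and Lyz2. Set side by side from the start without gaps, the Lyz1 and Lyz2 windows were identical at 92 of the last 100 bases (92.0%) and at 152 of 250 bases (60.8%). Searched on both strands, with 50 bases after the start included, AGGAAGT was found for 8 of the 25 members with a window (32%), against 10.7% of all 27025 genes with one. The other members with a match were Mrc1, Fcgr1, Spic and Folr2, the last with 2 matches. Clec4f had none. Msr1, C1qa, Csf1r, Spi1, Emr1, Tyrobp and Cd14 had no window in the table. A match describes letters only and says nothing of binding in these livers.

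Members that set up or mark the lineage as a whole included the least variable gene of the set. Csf1r, the receptor for the growth factors CSF1 and IL-34, had 5.74, 5.81, 5.72 and 5.79 on the knockout arrays, against 5.90, 5.82, 5.77 and 5.72 on the wild-type arrays. These 8 arrays spanned 0.18 log2, with an SD of 0.06, the smallest of any member. The difference of Csf1r was -0.04 (SE 0.07, 95% interval -0.19 to 0.12), or 0.975-fold, and its 2 dimmer probes differed by 0.01 and -0.02.
Spi1, which encodes PU.1, had -1.70 to -1.30 on the knockout arrays, against -1.55 to -1.36 on the wild-type arrays (difference -0.09, SE 0.10). Emr1, now named Adgre1, encodes the F4/80 antigen and had 2.17 to 2.26 on the knockout arrays, against 2.20 to 2.58 on the wild-type arrays. Its difference was -0.09 (SE 0.09) with all arrays and -0.0004 without wild-type 1.

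Fc and innate receptors held both very stable and very variable members. Tyrobp and Fcer1g, adaptors that pass on signals from activating receptors, had differences of -0.06 (SE 0.07) and -0.07 (SE 0.07), with an SD over the 8 arrays of 0.07 and 0.08. Fcgr3, an activating IgG receptor, differed by 0.05 (SE 0.07). Fcgr1, the high-affinity IgG receptor, had -0.68, 0.0026, -0.68 and -0.41 on the knockout arrays, against 0.02, 0.20, -0.28 and -0.15 on the wild-type arrays. Knockout 2 lay among the wild-type arrays and the other knockout arrays lay below all of them. The difference of Fcgr1 was -0.39 (SE 0.17, limma unadjusted p = 0.0508, adjusted p = 0.376), and -0.54 without knockout 2 (limma adjusted p = 0.149). Without replicate 4 of both genotypes it was -0.43 (limma adjusted p = 0.726).

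Cd14, the co-receptor for bacterial lipopolysaccharide, had the largest spread of any member. Its level was 3.29, 3.47, 3.85 and 3.80 on the knockout arrays, against 1.58, 4.03, 3.89 and 3.99 on the wild-type arrays. Wild-type 1 lay far below every other array, the nearest of which was knockout 1, and the other 3 wild-type arrays lay above every knockout array. The difference of Cd14 was 0.23 (SE 0.52, limma adjusted p = 0.866) with all arrays and -0.37 without wild-type 1 (SE 0.14, limma unadjusted p = 0.0366, adjusted p = 0.299), so that array sets its sign.

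Axl and Mertk are receptor tyrosine kinases that bind Gas6 and take part in the clearance of dying cells. Axl had 2.39, 2.45, 1.98 and 2.10 on the knockout arrays, against 2.51, 2.24, 2.46 and 2.30 on the wild-type arrays (difference -0.15, SE 0.12). Mertk had 0.55, 0.79, 0.13 and 0.26 on the knockout arrays, against 1.10, 0.29, 0.32 and 0.46 on the wild-type arrays (difference -0.11, SE 0.21). Knockout 3 and 4 were the lowest arrays for both kinases and wild-type 1 the highest. Without wild-type 1 the difference of Mertk was 0.08, and without knockout 3 and 4 it was 0.12. Gas6, their ligand and no member of the set, averaged 2.39 ± 0.22 in knockout and 2.75 ± 0.07 in wild-type livers, a difference of -0.36 (SE 0.11, limma adjusted p = 0.224).

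The members that mark monocytes and dendritic cells did not pass either. Cx3cr1, the fractalkine receptor, had -1.31, -1.56, -2.25 and -2.07 on the knockout arrays, against 0.0055, -2.15, -1.82 and -1.66 on the wild-type arrays. Wild-type 1 stood above all others, and both probes showed it, the dimmer at -2.23 against -5.27 to -3.42 elsewhere. The difference of Cx3cr1 was -0.39 (SE 0.45) with all arrays and 0.08 without wild-type 1. Ccr2, the receptor by which monocytes leave the marrow, had -1.78 to -1.32 on the knockout arrays, against -1.92 to -1.38 on the wild-type arrays (difference 0.17, SE 0.14). Itgax, which encodes CD11c, had -2.57 to -2.04 on the knockout arrays, against -2.67 to -2.08 on the wild-type arrays (difference -0.05, SE 0.15).

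**Figure D3:**
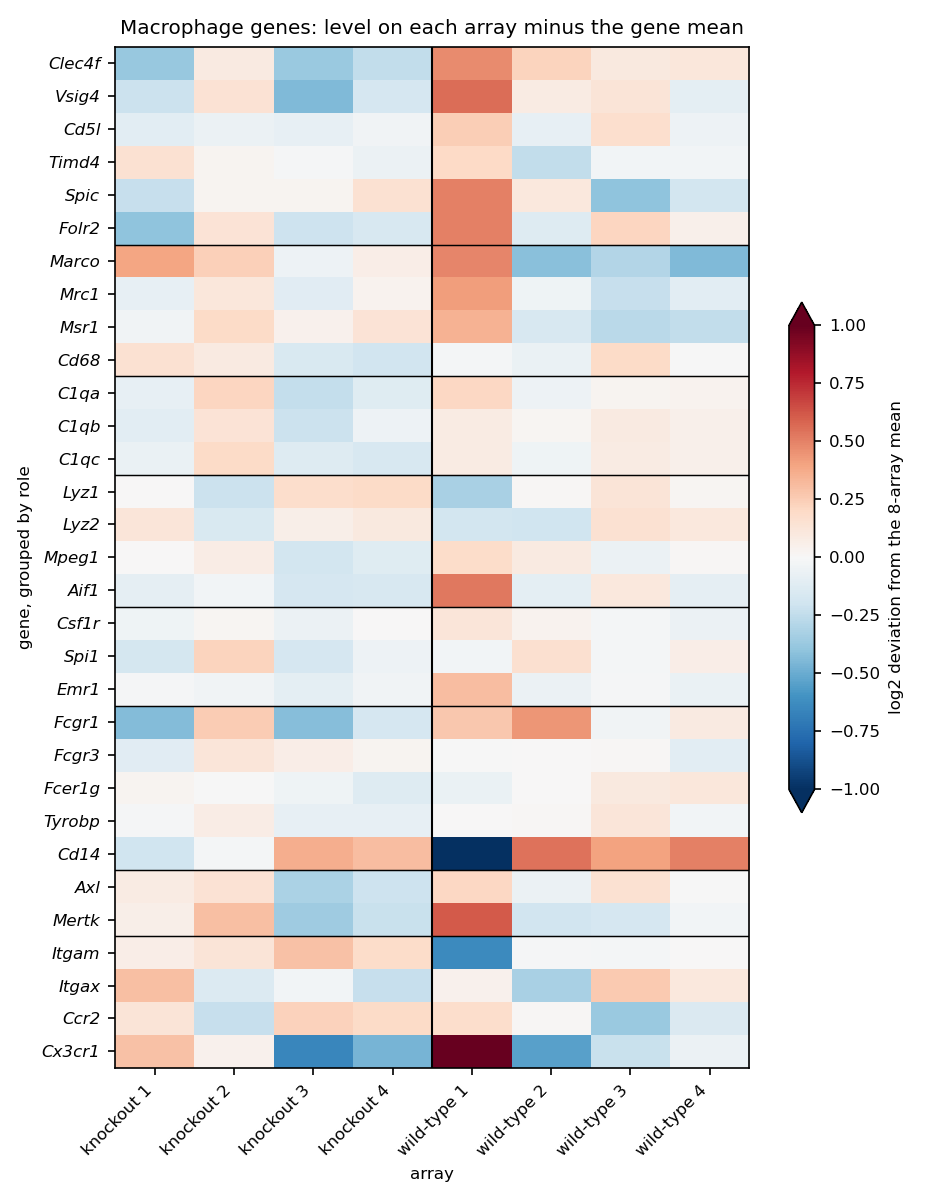
Level of each tested member on each array minus the gene's 8-array mean (log2, colour; the scale ends at 1 on either side), with knockout arrays left of wild-type arrays and genes grouped by role. The wild-type 1 column is the highest for 16 of 31 members, with Cd14 and Itgam far below their means there.

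Itgam, which encodes the CD11b chain of complement receptor 3, was the member whose probes disagreed on the difference between genotypes. Its brightest probe, the one with the CA repeat printed above, had 2.34, 2.40, 2.56 and 2.46 on the knockout arrays, against 1.64, 2.26, 2.25 and 2.27 on the wild-type arrays. This difference of 0.34 (SE 0.15, limma adjusted p = 0.380) was 0.18 without wild-type 1 (limma adjusted p = 0.305). Without replicate 4 of both genotypes it was 0.385 (limma adjusted p = 0.715). The 2 other Itgam probes, which lack the repeat, differed by 0.04 and -0.06, and their groups overlapped. Wild-type 1 was the lowest array for these probes too, at -0.44 and -0.18 from their 8-array means. It was at -0.64 for the brightest probe.
A set of probes chosen after these values were seen was then read out. Besides the Itgam probe, 33 kept probes held at least 8 CA repeats in a row (16 bases). Of these, 31 (93.9%) had a difference above 0, with a median of 0.36, against 57.6% of all 33754 kept probes, whose median was 0.03. Wild-type 1 was the lowest array for 30 of the 33 (90.9%), against 27.2% of all kept probes. The groups did not overlap, with knockout higher, for 10 of the 33 (30.3%), against 4.78% of all kept probes. The part of the repeat in the Itgam value was not tested.

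**Figure D4:**
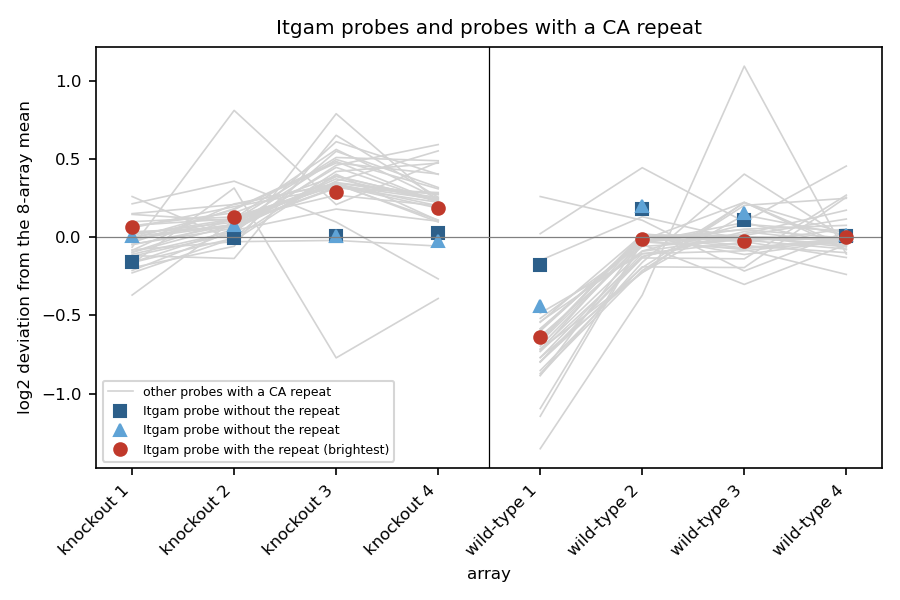
Deviation of each probe from its own 8-array mean (log2, vertical axis) on the 4 knockout arrays and then the 4 wild-type arrays, for the 3 Itgam probes (points) and 33 other probes with a CA repeat (lines). The Itgam probe with the repeat runs with the lines, whose median on wild-type 1 is -0.70. All 3 Itgam probes are lowest on wild-type 1.

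Wild-type 1 stood apart across the set. It was the highest of the 8 arrays for 16 of 31 members (51.6%), against 22.4% of all genes, and the lowest for Lyz1, Cd14 and Itgam. The median deviation of the members from their 8-array means was 0.20 on wild-type 1 and -0.10 to 0.09 on the other arrays. For the 6 Kupffer identity genes it was 0.49 on wild-type 1.
Markers of other cells moved with it. The endothelial markers were highest on wild-type 1 for 9 of 10 genes, with a summed linear level of 63.3 to 72.0 on knockout arrays, against 93.1 on wild-type 1 and 65.4 to 66.6 on the other wild-type arrays. The erythroid markers had a median deviation of -0.62 there, with sums of 1900 to 2040 on knockout arrays, against 1450 on wild-type 1 and 1950 to 2140 on the other wild-type arrays. The sum of the 12 granulocyte markers was 1380 to 1440 on knockout arrays, against 1220 on wild-type 1 and 1460 to 1490 on the others. The hepatocyte sum was 5600 to 5840 on knockout arrays, against 5220 on wild-type 1 and 5790 to 6200 on the others. The part of these cells in the member levels was not tested.
Without wild-type 1, limma called 0.281% of all genes lower (66 genes) and 0.102% higher (24 genes), and again 0 of 31 members. At an unadjusted p under 0.05, 14.8% of genes and 5 members (16.1%) differed: Clec4f and Cd14 lower, and Marco, Msr1 and Itgam higher. Those are also the members whose groups did not overlap there, beside 6.81% of all genes lower and 8.59% higher. With replicate 4 of both genotypes also left out, limma called 0 genes, 6.81% of genes had an unadjusted p under 0.05, and Marco was the only such member (0.55, limma adjusted p = 0.631).

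**Figure D5:**
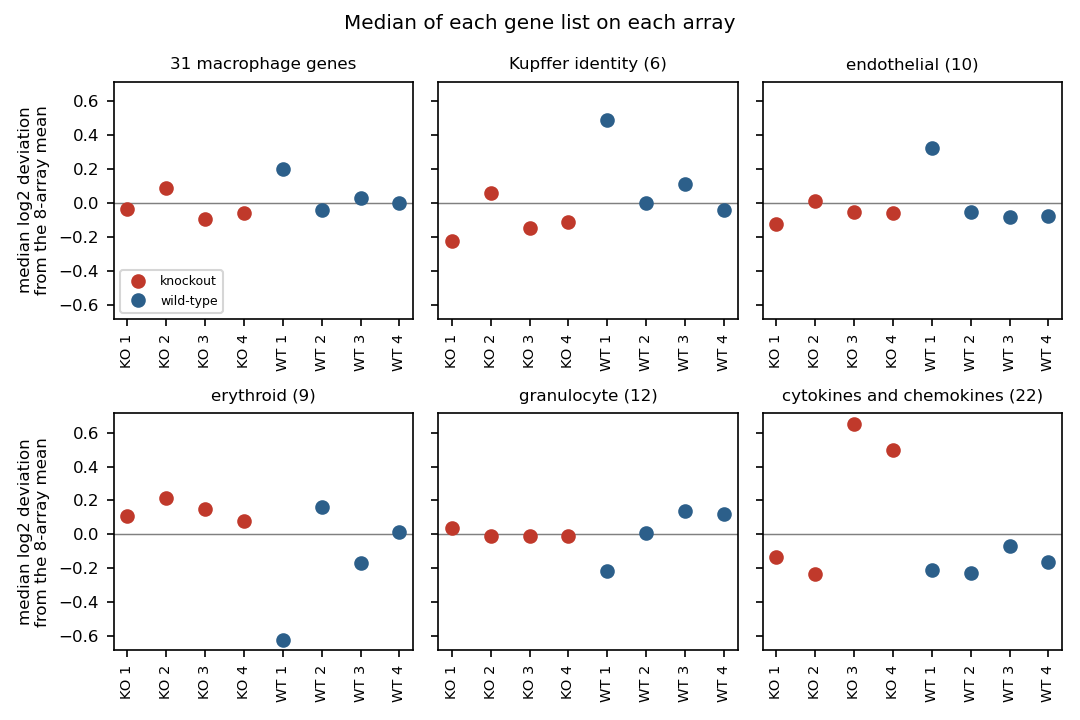
Median deviation from the 8-array mean (log2, vertical axis) of 6 gene lists on each array, knockout (KO) left of wild-type (WT). The Kupffer identity and endothelial lists are highest and the erythroid list lowest on wild-type 1, and the cytokine list is highest on knockout 3 and 4.

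Other macrophage genes gave the surroundings of the set. Of 19 regulators and growth factors of the lineage, 0 passed, 6 had differences below 0, and the median was 0.03. Cebpa, a myeloid and hepatocyte transcription factor, averaged 3.24 ± 0.08 in knockout and 2.89 ± 0.17 in wild-type livers (difference 0.35, SE 0.10, limma adjusted p = 0.187), with no overlap of the groups, and limma adjusted p was 0.624 without replicate 4. Of 30 lysosomal and surface genes, 0 passed and the median was -0.02. Siglec1, a sialic acid receptor of tissue macrophages, had a difference of -0.41 (SE 0.17, limma adjusted p = 0.364). The lysosomal proteases Ctsh and Ctsd differed by -0.17 and 0.15 (SE 0.07 each).

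Iron and heme handling is a main task of Kupffer cells, and of 10 genes of this list 0 passed, with a median of 0.01. Hmox1, the heme oxygenase that opens the heme ring, had 5.18, 5.34, 5.29 and 5.26 on the knockout arrays, against 5.43, 4.58, 4.62 and 4.54 on the wild-type arrays. This was the order seen for Marco and Msr1, with wild-type 1 above every knockout array and wild-type 2 to 4 below them. The difference of Hmox1 was 0.48 (SE 0.19, limma adjusted p = 0.340) with all arrays. Without wild-type 1 it was 0.69 (SE 0.06) and passed (limma adjusted p = 0.0105), and without replicate 4 as well it was 0.67 and did not pass (limma adjusted p = 0.350). Hamp, the hepatocyte hormone that degrades the iron exporter of macrophages, had 3.91, 1.99, 2.83 and 2.36 on the knockout arrays, against 7.01, 4.17, 3.31 and 4.02 on the wild-type arrays. The difference of Hamp was -1.86 (SE 0.77, limma adjusted p = 0.357), or -1.06 without wild-type 1.

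Of 22 cytokine, chemokine and inflammatory genes 0 passed, 16 had differences above 0, and the median was 0.34. The median deviation of this list was 0.65 and 0.50 on knockout 3 and 4, -0.14 and -0.24 on knockout 1 and 2, and -0.23 to -0.07 on the wild-type arrays. Without knockout 3 and 4 the median difference was -0.03. Knockout 4 may not be independent of knockout 3, and these are also the only knockout arrays with Ddx3y well above background. The cause of their shared deviation was not tested. Ccl3, a macrophage chemokine, had -4.26, -4.07, -2.09 and -2.69 on the knockout arrays, against -4.16, -5.20, -4.06 and -4.17 on the wild-type arrays. Its difference of 1.12 (SE 0.50, limma adjusted p = 0.384) was 0.23 without knockout 3 and 4, the arrays on which Axl and Mertk were lowest. Ccl3 was dim, well above background on 4 knockout and 3 wild-type arrays. With another background correction (normexp) its difference was 0.41.
Antigen presentation genes gave 0 calls among 9, with a median of -0.08. Cd74, the class II invariant chain, averaged 0.51 ± 0.28 in knockout and 1.12 ± 0.21 in wild-type livers (difference -0.61, SE 0.16, limma adjusted p = 0.166). The class II chain H2-Aa had a difference of -0.52 (SE 0.13) and H2-Eb1 had -0.41 (SE 0.11), with limma adjusted p of 0.156 and 0.180. Without replicate 4, limma adjusted p was 0.638 for Cd74 and 0.624 for H2-Aa. B cells and dendritic cells also express them. Ms4a1, which encodes the B cell antigen CD20, fell to -1.88 ± 0.12 in knockout livers, against -1.0 ± 0.20 in wild-type livers (SD, n = 4 each). It was the only gene called over all these lists and the cell markers (difference -0.88, SE 0.11, limma adjusted p = 0.0281), and it did not pass without replicate 4 (-0.85, limma adjusted p = 0.389) or without knockout 3 and 4 (-0.86, limma adjusted p = 0.335).

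Markers of the other cells that a liver piece can hold were read beside the set. The 10 stellate cell and fibroblast markers were all below 0, with a median of -0.26 and 0 calls, and their sums were 134 to 156 on knockout arrays, against 171 to 191 on wild-type arrays. Col1a2, a chain of type I collagen, differed by -0.46 (SE 0.09, limma adjusted p = 0.0840), with limma adjusted p of 0.524 without replicate 4. The lymphocyte sum was 23.4 to 24.2 on knockout arrays, against 26.2 to 32.2 on wild-type arrays. The hepatocyte and endothelial lists had medians of -0.04 and -0.09, the granulocyte list 0.02, the erythroid list 0.28, the megakaryocyte list -0.06 and the mast cell list -0.03, each with 0 calls. Without wild-type 1 the medians were -0.06 and 0.0002 for the hepatocyte and endothelial lists, -0.06 for the granulocyte, 0.10 for the erythroid, 0.0077 for the megakaryocyte and -0.01 for the mast cell list. The sum of 5 pancreas genes was 13.6 to 21.9 on knockout arrays, against 122 and 65.6 on wild-type 3 and 4 and 21.5 to 29.9 on the other wild-type arrays. The part of any of these cells in the member differences was not tested.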

How the data were processed

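Cy3-labelled RNA from 8 livers was hybridised to 8 single-colour Agilent arrays of 62976 spots, on 1 slide and in 1 scan. The authors deposited the spot intensity (processed, mean, median and local background signals, linear scale) read by Agilent Feature Extraction 10.10. The submitters' processing notes name that tool and, with no role, limma. A deposited value table of 27084 probes is in log2 units, per its values. Each column correlated with the log2 of that array's median spot signal (r from 0.99995 to 0.999994), with medians of 8.84 to 8.86 and a shared maximum of 19.26, so it was made alike across arrays by a step not given in the sources used here. It served as an alternative.

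Control and outlier-flagged spots were left out, spots of a probe were averaged, and 87 probes whose spots were all flagged on an array were dropped. On each array 58.6% to 66.2% of non-control spots were well above background and 0 were saturated. The number of arrays limits the precision. Each processed signal was taken to log2, and the 75th percentile over the array's non-control probes was subtracted. Probes well above background on at least 4 of 8 arrays were kept (33754), with the brightest kept probe per gene. Names were updated by accession for 27199 probes and by unique synonym for 564 with a RefSeq table of GRCm38.p6, and coordinates are mm9, per the file headers.

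The test between genotypes was lmFit with eBayes (limma 3.58.1 in R 4.3.3), two-sided, without covariates, with Benjamini-Hochberg adjustment over 23526 genes and a threshold of 0.05. The script was tested on simulated data. Alternatives changed background correction, normalization, signal column, filter, probe rule, variance model, replicate block, sex covariates and the arrays included. The fit without replicate 4 and wild-type 1 and the set of CA repeat probes were added after seeing the data. The text names every tested member, the 3 genes of each other list with the smallest p, of which some are left out of the report, and Mirg, Xist and Ddx3y. The members, lists and rules were chosen with earlier results of these data known. List sums add linear levels over a list's tested genes. Not tested under the listed names were Slc48a1, Lilrb4, Ciita, Ighm, Hbb-b1, Ms4a2, Prss2, Pnlip and Cela2a.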

Additional observations from a re-analysis of the deposited data

Results flagged for a closer look

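Within each genotype, an array was set apart where its gap to the nearest of the other 3 took up more of the group's range than Dixon's 95% critical value for 4 samples. Chance alone gives this in about 5.0% of groups. Of 148 groups of 4 arrays, 16 held such an array, and of the 62 groups of members, 5 did. No explanation was tested for any of them.

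Wild-type 1 was the array set apart for 4 members. It had 6.54 for Marco (5.61 to 5.76 on the other wild-type arrays), 2.58 for Emr1 (2.20 to 2.26), 1.58 for Cd14 (3.89 to 4.03) and 1.64 for Itgam (2.25 to 2.27). Wild-type 4 had 1.99 for Fcgr3, where the others had 2.10 to 2.11. Among genes outside the set, wild-type 1 had 5.43 for Hmox1 (4.54 to 4.62) and 4.22 for the sinusoidal endothelial lectin Clec4g (3.07 to 3.21).

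Knockout 1 had 2.65 for Clec4g (3.18 to 3.29 on the other knockout arrays), 1.55 for the chemokine Ccl24 (1.92 to 1.97) and -0.37 for the platelet gene Gp1bb (-0.06 to -0.02). It had the highest class II levels of the knockout arrays, with -1.27 for H2-Aa (-1.65 to -1.63) and 1.21 for H2-Eb1 (0.85 to 0.89). Knockout 2 had 3.07 for the granulocyte protease Mmp8 (3.36 to 3.39). Wild-type 3 had 5.83 for Col1a2 (5.63 to 5.66 on the other wild-type arrays) and 4.32 for Col1a1 (4.10 to 4.11), and wild-type 2 had -5.20 for Ccl3 (-4.17 to -4.06).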

How the results depend on the processing

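No member was called under any alternative, and the lowest adjusted p of any was 0.0963 (Clec4f, limma, without knockout 2). The members' median difference ran from -0.13 with Xist as a covariate to -0.0001 without knockout 3 and 4. The count of genes called moved more, from 51 to 132 with normexp background correction, 80 with quantile normalization, 149 with both, 140 in the deposited value table, 19 with no filter on dim probes, 149 with a trended robust variance, 91 with Ddx3y and 18 with Xist as a covariate. It was 6 without replicate 4, 13 without wild-type 3 and 4, 12 without knockout 3 and 4, and 0 without replicate 4 and wild-type 1 (1603 at an unadjusted p under 0.05). With each array left out in turn, 14 to 90 genes were called. With the replicate number as a block, 19 genes and 0 members were called. Same-numbered arrays did not deviate together (r from -0.114 to 0.069), and 1 of 4 knockout arrays correlated best with its own number.

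The call of Ms4a1 was lost with Xist as a covariate, with no filter on dim probes, with the replicate block, without any 1 of knockout 1, 3 and 4 or wild-type 2, 3 and 4, and without each pair or trio of arrays tried. It held under the other alternatives.

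Some differences that had not passed the test changed sign. With Ddx3y as a covariate these were Mrc1 (0.0024) and Spic (0.073). With Xist they were Timd4 (-0.0036), Spic (0.075), Pf4 (0.0145) and Cpa3 (0.051), and with normexp Spic (0.0155). Without knockout 3 and 4 they were Mertk (0.12), Mrc1 (0.0021), Apoa1 (0.0054), Axl (0.042), Itgax (0.057), Mcpt4 (0.25), C1qc (0.021), C1qa (0.0081), Lyz1 (-0.064) and Cd68 (0.093). Without wild-type 3 and 4 they were Cd68 (0.0145), Ccr2 (-0.012), Itgax (0.12), Kit (-0.0008) and Msr1 (-0.0095), and without replicate 4 Mcpt4 (0.060) and Itgax (0.0495). Without replicate 4 and wild-type 1 they were Cd14 (-0.43), Cdh5 (0.012), Cx3cr1 (0.28), Mcpt4 (0.18), Mertk (0.19), Spic (0.089), Lyz1 (-0.082), Mrc1 (0.10) and Itgax (0.075). With each array left out in turn, the range crossed 0 for Cd14 (-0.37 to 0.45), Cd68 (-0.11 to 0.0027), Cx3cr1 (-0.64 to 0.080), Itgax (-0.16 to 0.033), Kit (-0.013 to 0.12), Lyz1 (-0.014 to 0.16), Mcpt4 (-0.35 to 0.047), Mertk (-0.23 to 0.077), Mrc1 (-0.10 to 0.11), Spic (-0.15 to 0.15) and Timd4 (-0.023 to 0.13). The cause was not tested for any of these.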
